A study of Mus musculus with 9 samples.

Results

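Mouse embryonic stem cells labelled as lacking both Yap and Taz (named here double KO) were compared with control cells by RNA-seq, with 3 libraries in each group. These are 6 of the 9 libraries of the series, chosen by their titles, and the other 3 are of cells lacking Taz only (Taz KO). Of the 38940 genes of the deposited table, the 11674 with a mean of at least 1 FPKM over the 9 libraries were tested. FPKM is a read count per kilobase of transcript, scaled between libraries.

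The control cells carry loxP-flanked alleles of both genes, written Yap f/f Taz f/f. The descriptions give the double KO cells as Yap ∆/∆ Taz ∆/∆, while their genotype field repeats the entry of the Taz KO cells, Yapfl/fl/Taz-/-. Every group was grown on fibronectin in N2B27 medium with 4 ng/ml Lif, 0.4 µM PD0325901 (a MEK inhibitor) and 3 µM CHIR99021 (a GSK3 inhibitor), a combination called 2i/Lif that holds the cells in a naive pluripotent state. Cre-ERT2 was brought in on a piggyBac transposon under a CAG promoter, and 500 nM 4-OHT, a tamoxifen metabolite that activates it, was used to induce recombination. The labels do not say whether control cells were treated with it, how many clones or lines each group holds, or that replicates were separate cultures. A p-value here is thus relative to the scatter among the libraries at hand, part of which could be technical.

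YAP and TAZ are transcriptional co-activators held in check by the kinases of the Hippo pathway. In the nucleus they bind TEAD factors at promoters and enhancers, and their known targets include genes of the extracellular matrix, the cytoskeleton and growth. The 2i/Lif medium blocks the ERK pathway and stabilises beta-catenin.

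Yap1 (ENSMUSG00000053110; chromosome 9, 7931999 to 8004596 in build GRCm38) was at 18.1, 18.1 and 19.1 FPKM in control 1, 2 and 3 and at 4.14, 3.98 and 4.62 in double KO 1, 2 and 3. All double KO libraries lay far below all control libraries (log2 fold change -1.998 with SE 0.07, adjusted p = 3.75e-06 by limma with Benjamini-Hochberg adjustment, as for all genes below). Wwtr1, which encodes TAZ, was at 12.4, 12.7 and 11.1 FPKM in control and 14.7, 13.2 and 13.9 in double KO (adjusted p = 0.22). A value over the whole gene does not show whether single exons are gone, and it is no check of the Taz deletion.

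The 10 stem cell markers (Pou5f1, Sox2, Nanog, Esrrb and others) were all tested. They summed to 4778 to 5126 FPKM in control and 2412 to 2717 in double KO, with 1 rise and 5 falls. Sox2, Nanog, Klf4, Dppa5a and Fgf4 fell, Zfp42 rose, and Pou5f1, Esrrb, Tfcp2l1 and Tbx3 had no call. Among fits that left out 1 library, the Nanog call held only without Taz KO 2 or Taz KO 3. That of Sox2 was lost without control 1 or double KO 3. Most of the difference was Dppa5a, at 3148, 3441 and 3194 FPKM in control and 1260.1, 1031 and 1127 in double KO. Of 8 fibroblast markers 3 were at 0 in all 6 libraries, and their sum was 1.88 to 3.48 FPKM in control and 2.75 to 9.75 in double KO. Markers of the primitive endoderm summed to at most 3.77 FPKM and those of trophoblast to at most 14.6. Neural markers summed to 14.5 to 28.95 FPKM in control and 12.7 to 38.2 in double KO, most of it Tubb3, and mesoderm markers to 3.86 to 6.09 and 2.05 to 12.4 FPKM. The markers' part in the results was not tested. In these bulk libraries fewer cells of a type and less RNA per cell cannot be told apart.

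Between double KO and control 1443 genes rose (12.4% of those tested) and 1505 fell (12.9%), 25.3% in all. With replicate number as a blocking factor there were 2828 rises (24.2%) and 3284 falls (28.1%), 52.4% in all. Rises of at least 2-fold numbered 204 (1.75%) and falls 207 (1.77%), and for 45.6% of all tested genes the control and double KO values were separate. The calls were fewest without control 1 (780 rises and 725 falls), followed by double KO 3 (900 and 930), control 3 (996 and 925) and double KO 1 (975 and 1066). On chromosome 8, 245 of 670 tested genes rose and 22 fell, on chromosome 6 it was 145 and 24 of 522, and on chromosome 14 it was 73 and 24 of 397. On Y 3 of 5 tested genes fell. The Taz KO libraries stood apart from control on the same chromosomes, with 93.4% of genes higher on chromosome 8, 86.4% on 6 and 76.3% on 14, against 52.8% of all tested genes, and 0 of 5 on Y. An effect of losing both factors and a difference in origin between the cell lines cannot be told apart on these chromosomes or, from these data, elsewhere. Off chromosomes 6, 8, 14 and Y the rises were 9.72% of tested genes and the falls 14.2%, together 23.9%. A fit without those chromosomes gave 974 rises (9.66% of 10080) and 1417 falls (14.1%), 23.7% in all. Where leaving them out lowered the rises of a gene list by 1.5 times or more, its count off them is given.

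The promoters below were chosen because each stands for a gene group that moved and carries the letters of a motif known for that group. TEAD factors bind GGAATG, the lysosomal regulators TFEB and TFE3 bind TCACGTG (the CLEAR motif, which contains the E-box CACGTG), NRF1 of the nuclear respiratory genes binds GCGCATGCG, and ATF4 binds TGATGNAA (the CARE motif). Each sequence was read from the RefSeq promoter table (build GRCm38.p6), runs 5′ to 3′ on the strand of its gene and ends before the start site, and capitals mark each match of the group's own motif on either strand, with overlapping matches of both strands joined. The TEAD examples are Cyr61 (chr3:145650043-145650128, minus strand), Amotl2 (chr9:102717699-102717784, plus strand) and Ajuba (chr14:54577780-54577865, minus strand), which are all known YAP/TAZ targets and fell. The log2 fold changes of Amotl2 and Ajuba were -1.62 and -1.24. Ctgf, Nuak2 and Wwc1 were looked up as well, and none gave a sequence of this kind.
Cyr61: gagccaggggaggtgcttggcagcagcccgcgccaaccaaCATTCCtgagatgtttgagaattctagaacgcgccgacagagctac
Amotl2: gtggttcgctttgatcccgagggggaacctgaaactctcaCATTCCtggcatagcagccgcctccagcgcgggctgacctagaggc
Ajuba: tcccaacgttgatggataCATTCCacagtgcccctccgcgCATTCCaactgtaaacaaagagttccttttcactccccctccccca
The CLEAR examples are Mcoln1 (chr8:3500407-3500493, plus strand), Lamp1 (chr8:13159059-13159145, plus strand), Glb1 (chr9:114400989-114401075, plus strand) and Ctsd (chr7:142387880-142387966, minus strand). They encode a lysosomal calcium channel, a lysosomal membrane protein, beta-galactosidase and cathepsin D, and rose.
Mcoln1: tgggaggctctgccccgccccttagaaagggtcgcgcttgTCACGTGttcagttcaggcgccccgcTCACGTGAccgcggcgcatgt
Lamp1: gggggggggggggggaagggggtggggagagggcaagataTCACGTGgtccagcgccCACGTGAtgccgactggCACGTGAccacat
Glb1: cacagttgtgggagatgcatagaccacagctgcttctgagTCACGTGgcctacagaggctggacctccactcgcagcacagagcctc
Ctsd: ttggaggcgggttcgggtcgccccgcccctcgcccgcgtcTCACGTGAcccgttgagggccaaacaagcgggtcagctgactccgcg
The NRF1 examples are Atp5k (chr5:108434401-108434489, minus strand) and Cox6a1 (chr5:115349072-115349160, minus strand), subunit genes of ATP synthase and cytochrome c oxidase, which fell.
Atp5k: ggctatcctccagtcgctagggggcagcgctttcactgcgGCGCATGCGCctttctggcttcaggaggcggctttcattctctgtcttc
Cox6a1: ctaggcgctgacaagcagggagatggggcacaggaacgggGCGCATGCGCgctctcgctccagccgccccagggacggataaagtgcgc
The CARE examples are Pycr1 (chr11:120643804-120643891, minus strand), Got1 (chr19:43524660-43524747, minus strand) and Aars (chr8:111033690-111033777, plus strand), genes of proline synthesis, aspartate synthesis and the charging of alanyl-tRNA, which fell.
Pycr1: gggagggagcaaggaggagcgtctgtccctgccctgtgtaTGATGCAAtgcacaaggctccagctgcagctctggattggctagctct
Got1: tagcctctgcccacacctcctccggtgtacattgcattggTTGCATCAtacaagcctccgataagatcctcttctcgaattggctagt
Aars: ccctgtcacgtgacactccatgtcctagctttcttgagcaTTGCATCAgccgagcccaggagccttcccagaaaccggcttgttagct

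Over the 8865 tested genes with a promoter window of 300 bases (250 before and 50 after the start site), shares of windows with a motif on either strand were counted as a description. CLEAR stood in 6.81% of all windows (604), in 9.17% of the windows of genes that rose and in 5.45% of those that fell, but in 8 of 139 (5.755%) of the genes that rose at least 2-fold and in 5 of 139 (3.597%) of those that fell at least 2-fold. Among lysosomal genes it stood in 11 of 47 windows (23.4%) and among genes of the V-ATPase, the proton pump of the lysosome, in 4 of 13 (30.8%). It stood in 0 of 13 windows of the Eph receptors and ephrins, a list that rose. Among the lists counted here that mostly fell, CLEAR shares ran from 3 of 74 (4.05%, nuclear respiratory genes) to 3 of 19 (15.8%, cholesterol genes). NRF1 letters stood in 4.16% of all windows, in 4.07% of the genes that rose and 4.685% of those that fell, in 3 of 139 (2.16%) that rose and 0 of 139 that fell at least 2-fold, and in 10 of 74 windows (13.5%) of the nuclear genes for respiratory complexes. NRF1 shares were 7 of 66 (10.6%) for mitochondrial ribosomal and 2 of 19 (10.5%) for cholesterol genes. For serine and one-carbon genes it was 2 of 24 (8.33%) and for tRNA synthetases 2 of 28 (7.14%). In the lists that rose it was 1 of 13 V-ATPase (7.69%), 1 of 47 lysosomal (2.13%) and 0 of 13 Eph and ephrin windows. CARE stood in 2.11% of all windows, in 1.94% of the genes that rose and 2.73% of those that fell. At least 2-fold, it was 4 of 139 (2.88%) that rose and 8 of 139 (5.755%) that fell. Among lists that fell it stood in 5 of 28 (17.9%) of the aminoacyl-tRNA synthetase genes and 2 of 19 (10.5%) of the cholesterol genes. It stood in 0 of 24 serine and one-carbon, 0 of 74 nuclear respiratory and 0 of 66 mitochondrial ribosomal windows. Among lists that rose it stood in 3 of 47 lysosomal (6.38%), 1 of 13 V-ATPase (7.69%) and 0 of 13 Eph and ephrin windows. TEAD letters stood in 11.7% of all windows, in 10.9% of the genes that rose and in 11.4% of those that fell, so the share among all falls was near that of all windows. Among the genes that changed at least 2-fold they stood in 22 of 139 (15.8%) that fell and in 11 of 139 (7.91%) that rose. They also stood in 9 of 47 lysosomal windows (19.15%), in 6 of 28 of the tRNA synthetases (21.4%) and in 3 of 13 of the Eph receptors and ephrins (23.1%), lists that moved in different directions. TEAD shares in the other lists counted were lower. They were 2 of 13 V-ATPase (15.4%), 3 of 24 serine and one-carbon (12.5%) and 8 of 66 mitochondrial ribosomal windows (12.1%). For nuclear respiratory genes it was 8 of 74 (10.8%) and for cholesterol genes 0 of 19. The AP-1 motif TGANTCA, bound by Jun and Fos proteins, stood in 4.25% of all windows, in 5.83% of the genes that rose and 4.26% of those that fell, and in 14 of 139 (10.1%) that rose and 9 of 139 (6.475%) that fell at least 2-fold. By list it stood in 5 of 47 lysosomal (10.6%), 7 of 74 nuclear respiratory (9.46%) and 2 of 24 serine and one-carbon windows (8.33%). For the V-ATPase it was 1 of 13 (7.69%), for mitochondrial ribosomes 3 of 66 (4.55%) and for tRNA synthetases 1 of 28 (3.57%). Cholesterol genes had it in 0 of 19 windows and Eph receptors and ephrins in 0 of 13. Windows of these groups also differed in base composition, with a median GC content of 61.3% over all windows, 59.7% in the genes that rose at least 2-fold and 58.3% in those that fell at least 2-fold. A match is not a bound site.

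The absolute levels shifted unevenly. Genes that rose were mostly of low level, with a median of 6.24 FPKM in control, and genes that fell were higher, with a median of 18.2. Among genes of 3 to 10 FPKM 601 of 3782 rose and 388 fell, with a median log2 fold change of 0.05. Among genes of 30 to 100 FPKM 141 of 1639 rose and 342 fell (median -0.15), and among those of 100 to 300 FPKM 18 of 387 rose and 107 fell (median -0.26). Off the chromosomes on which the Taz KO libraries also stood apart, the excess of rises among low genes was smaller. At 3 to 10 FPKM 12.9% rose and 11.3% fell off them, against 15.9% and 10.3% on all chromosomes. At 1 to 3 FPKM it was 9.35% and 7.79%, against 11.7% and 7.48%. At 30 to 100 FPKM 6.48% rose and 24.4% fell off them, against 8.60% and 20.9%. The scale of the table is set by the typical gene, and the median over all tested genes was -0.02.

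**Figure D1:**
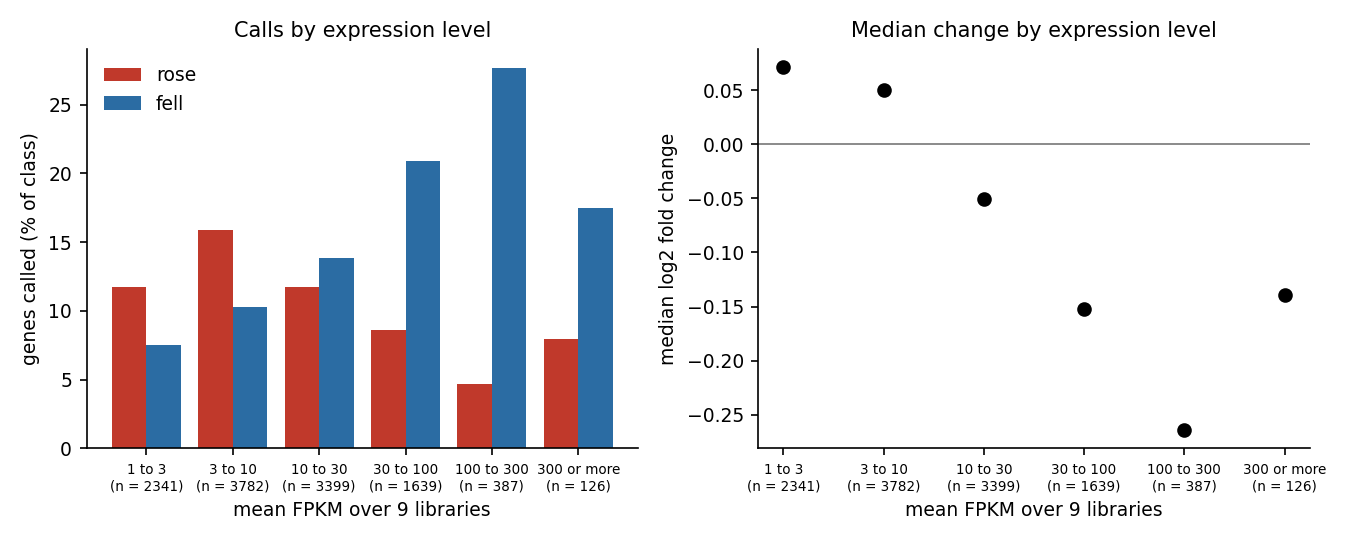
Share of tested genes that rose (red) or fell (blue), left, and median log2 fold change of double KO against control, right, in 6 classes of mean FPKM over the 9 libraries. Rises outnumber falls below 10 FPKM and falls outnumber rises above it, with the lowest median (-0.26) at 100 to 300 FPKM. Genes of all chromosomes are counted.

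Genes of at least 100 FPKM numbered 549, 512 and 558 in control 1, 2 and 3 and 486, 409 and 483 in double KO. The 100 highest genes held 32.6 to 33.5% of the summed FPKM in control and 34.1 to 35.7% in double KO. The sum over all tested genes was 373190, 356450 and 382860 FPKM in control and 363670, 333850 and 356900 in double KO. In both groups the library numbered 2 had the lowest sum. Double KO 1 and double KO 3 lay above control 2, so the groups overlapped in this sum. Within each replicate number the double KO sum was the lower.

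The genes that rose summed to 37079 ± 1568 FPKM in control and 53219 ± 666 in double KO (SD, n = 3). Those that fell summed to 76289 ± 2290 and 51728 ± 2738. The gain of 16140 FPKM was concentrated, since 18 genes made 50% of it, while the loss of 24561 FPKM took 99 genes to reach that share. The largest gains were those of 6 mitochondrially encoded genes, the metallothionein genes Mt1 and Mt2, and Lamp1, Klf2, Cldn4, Lgals1, Tpt1, Sqstm1 and Erdr1. The largest losses were Dppa5a, 8 ribosomal protein genes, Spp1, Ybx1, Igfbp2, Ldha, Cox8a and Trim28. These genes were picked by size, so their values describe the shift and do not test it. The calls of Erdr1, Ldha, Rplp1, Rpl8, Rps25, Rps13 and Rpl7a were each lost without control 1, control 3 or double KO 3, among other fits. That of Tpt1 was lost without control 1 or double KO 1.

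**Figure D2:**
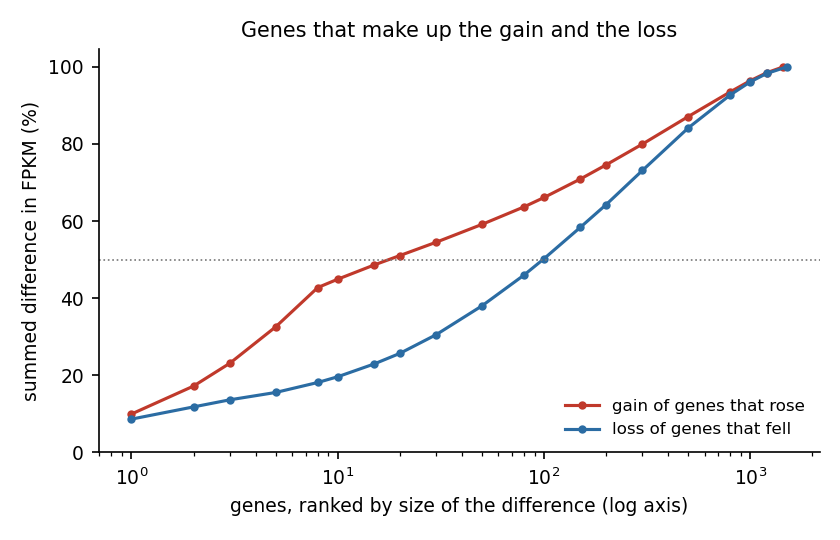
Share of the summed FPKM difference (double KO minus control) reached by the genes with the largest differences, for the 1443 genes that rose (red) and the 1505 that fell (blue), on a log axis of gene rank. The gain reaches 50% (dotted line) with 18 genes and the loss with 99.

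Among secreted and signalling genes in these lists, Spp1, which encodes osteopontin, was at 393, 458 and 403 FPKM in control and 167, 244 and 138 in double KO (log2 fold change -1.23 with SE 0.19, adjusted p = 0.00261). Igfbp2, which encodes a carrier of insulin-like growth factors, was at 250.3, 254 and 185 and 49.5, 60.7 and 25.5 FPKM (log2 fold change -2.41 with SE 0.29, adjusted p = 0.000974). For both genes all double KO libraries lay below all control libraries. Klf2, a naive pluripotency factor on chromosome 8, rose from 198 ± 12.3 to 361 ± 21.05 FPKM (adjusted p = 0.000539). Ybx1, which encodes an RNA-binding protein, fell from 556 ± 37.1 to 342 ± 58.05 FPKM (adjusted p = 0.0121), a call lost without control 1. Trim28, a co-repressor of retroelements, fell from 407 ± 36.8 to 259 ± 36.6 FPKM (adjusted p = 0.0173), a call lost without control 1 or control 3.

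The respiratory chain split by the genome that encodes it. Complexes I to V carry out oxidative phosphorylation in the inner mitochondrial membrane, and most of their subunits are encoded in the nucleus, the rest in mitochondrial DNA. Of 45 nuclear genes of complex I 27 fell and none rose, and of 43 nuclear genes of complexes II to V 31 fell and none rose, with median log2 fold changes of -0.47 and -0.57. Of 12 mitochondrially encoded genes 6 rose and none fell (median 0.30). The block gave 38 and 39 falls for the nuclear lists and again 6 rises.

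The nuclear genes of complexes II to V summed to 6357, 5849.9 and 6493 FPKM in control 1, 2 and 3 and 4751, 3743 and 4525 in double KO. Those of complex I summed to 2615, 2321 and 2617 FPKM in control and 1967, 1563 and 1929.9 in double KO. In both lists all double KO sums lay below all control sums, and double KO 2 was the lowest library. The mitochondrially encoded genes summed to 36192, 42472 and 39818 FPKM in control and 48342, 44062 and 46923 in double KO, without overlap. Reads of mitochondrially encoded genes were 3.57, 4.45 and 3.74% of all reads in control and 4.82, 4.86 and 4.64% in double KO. These libraries were made from poly(A)-selected RNA, and the part of RNA quality or selection in this share was not tested.

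Cox5a, a subunit of cytochrome c oxidase (ENSMUSG00000000088; chromosome 9, 57521274 to 57532426), was at 285, 259 and 272 FPKM in control and 177, 116 and 159 in double KO (log2 fold change -0.87 with SE 0.18, adjusted p = 0.00928). Ndufa7 of complex I was at 91.9, 83.05 and 80.9 and 50.2, 42.7 and 47.8 FPKM (log2 fold change -0.86 with SE 0.09, adjusted p = 0.000555). The groups overlapped for neither. Cox8a fell from 393 ± 38.3 to 241 ± 9.37 FPKM (adjusted p = 0.00114), Ndufa2 from 67.2 ± 5.45 to 36.6 ± 5.003 FPKM (adjusted p = 0.0013), Ndufc1 from 32.3 ± 3.398 to 17.2 ± 4.24 FPKM (adjusted p = 0.0123) and Atp5g1, a ring subunit of ATP synthase, from 22.05 ± 1.62 to 11.8 ± 2.898 FPKM (adjusted p = 0.0109). Uqcrq of complex III fell from 44.2 ± 3.41 to 19.2 ± 5.58 FPKM (adjusted p = 0.0125) and the catalytic ATP synthase subunit gene Atp5b, the most abundant of complexes II to V, from 479 ± 28.4 to 358 ± 26.7 FPKM (adjusted p = 0.0122), calls lost without control 1. Ndufa4, the most abundant of the complex I list, is named for complex I, but its product is now assigned to complex IV. It is kept in the counts and the sum of that list. Ndufa4 was at 316, 277 and 332 FPKM in control and 272, 163 and 279 in double KO, with an adjusted p of 0.216, and 0.00992 with the block.

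Among the mitochondrially encoded genes mt-Nd6 was at 1113, 1174 and 1080.4 FPKM in control and 1741, 1544 and 1596 in double KO (log2 fold change 0.53 with SE 0.08, adjusted p = 0.00184), and mt-Cytb at 2253, 2584 and 2293 and 3535, 2972 and 3496 (log2 fold change 0.49 with SE 0.09, adjusted p = 0.00713). For both every double KO library exceeded every control library. mt-Nd4 rose from 1889 ± 194 to 2609.7 ± 155 FPKM (adjusted p = 0.00766). mt-Co1, the most abundant, was at 6919.5, 8855 and 7729 and 8107, 8406 and 7772 FPKM, with overlapping groups (adjusted p = 0.724). The calls of mt-Nd5, mt-Atp6 and mt-Co3 were each lost in at least 4 of the 9 fits without 1 library. Quantile normalization, which forces equal distributions on the libraries, left 4 rises among the mitochondrially encoded genes, with 30 falls in complex I and 27 in complexes II to V. Leaving out 1 library, the falls of complex I numbered 13 without control 1 and 15 without control 3, those of complexes II to V 14 without control 1 and 18 without control 3, and the mitochondrially encoded rises 3 without control 1, control 3, double KO 1 or double KO 3.

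**Figure D3:**
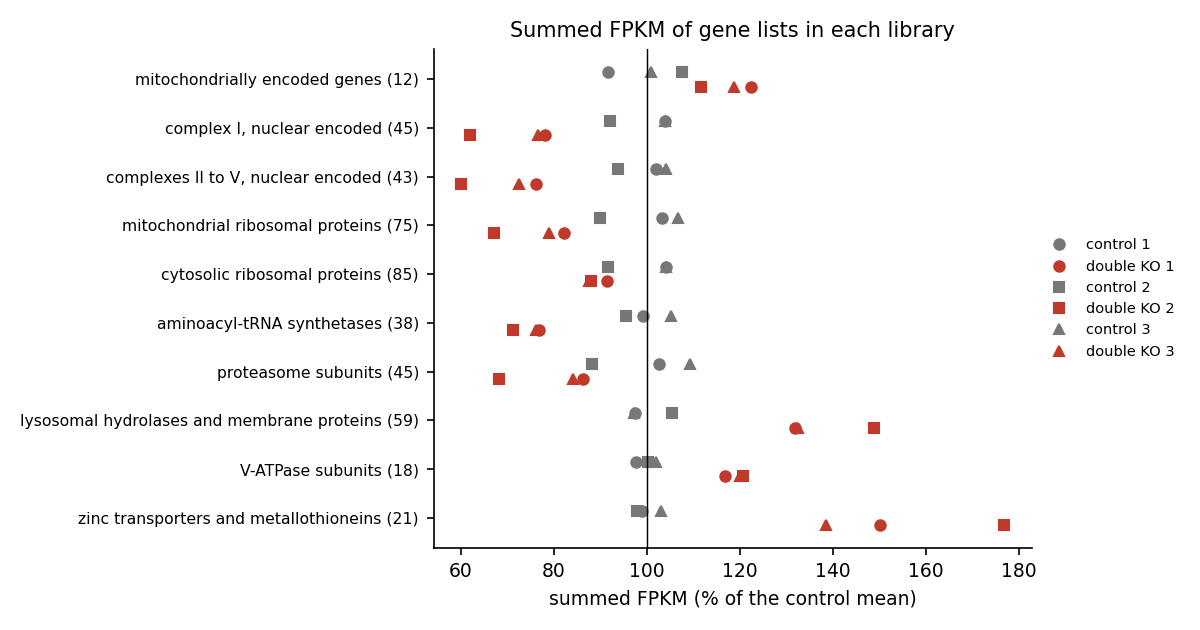
Summed FPKM of 10 gene lists in each control library (grey) and double KO library (red), as a percentage of the control mean, with list sizes in brackets and shapes marking replicate numbers. The nuclear respiratory lists lie below and the mitochondrially encoded, lysosomal and zinc lists above the control libraries in every double KO library, and the cytosolic ribosomal list lies closest to them.

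Mitochondrial ribosomes, which translate the mitochondrially encoded subunits, are made from nuclear genes. Of 75 such genes 32 fell and none rose (median -0.37), and the block gave 59 falls and 2 rises. Mrpl28 was at 58.3, 49.6 and 56.02 FPKM in control and 34.3, 28.6 and 31.5 in double KO (log2 fold change -0.79 with SE 0.11, adjusted p = 0.0019), without overlap. Mrpl36 fell from 40.3 ± 1.499 to 22.03 ± 3.48 FPKM (adjusted p = 0.00186) and Mrps24 from 26.9 ± 3.61 to 14.9 ± 1.704 FPKM (adjusted p = 0.00921). The falls numbered 17 without double KO 2 or double KO 3, 13 without control 3 and 7 without control 1.

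In the citric acid cycle and pyruvate dehydrogenase 11 of 29 genes fell and none rose (median -0.31), with 21 falls under the block. Pdha1, the pyruvate dehydrogenase subunit that sends pyruvate into the cycle, fell from 92.7 ± 3.35 to 58.5 ± 2.42 FPKM (adjusted p = 0.00055), Sdhc, a subunit of succinate dehydrogenase, from 40.96 ± 2.89 to 25.1 ± 1.09 FPKM (adjusted p = 0.000537), and Idh2, the mitochondrial isocitrate dehydrogenase, from 83.1 ± 6.56 to 51.3 ± 8.91 FPKM (adjusted p = 0.00575). Pdhb, the most abundant gene of the list, was at 125, 113 and 135 FPKM in control and 128, 122 and 130.2 in double KO (adjusted p = 0.775). In glycolysis 5 of 26 genes fell and 1 rose (median -0.30), with 14 falls and 3 rises under the block. The rise was Pfkfb2, an enzyme that makes the activator of phosphofructokinase, at 3.63, 4.77 and 4.54 FPKM in control and 11.3, 13.9 and 15.2 in double KO (log2 fold change 1.54 with SE 0.20, adjusted p = 0.00138). The glycolytic falls, Ldha, Eno1, Pgk1 and Pgam1 among them, numbered 0 without control 1, 1 without control 2 or double KO 3, 2 without double KO 2, 3 without control 3 or double KO 1 and 9 without Taz KO 2.

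In the lists of protein synthesis and of the proteasome falls outnumbered rises. Falls were 12.9% of all tested genes, 20.9% at 30 to 100 FPKM, 27.6% at 100 to 300 and 17.5% at 300 or more. The cytosolic ribosomal (21.2%), proteasome (22.2%) and ribosome assembly (15.9%) lists lay within the range of these shares, and the aminoacyl-tRNA synthetases (44.7%) above it. The part of expression level in these counts was not tested. Of 38 aminoacyl-tRNA synthetase genes, whose products charge tRNAs, 17 fell and none rose (median -0.24), 15 of them off the 4 chromosomes, and 26 fell under the block. Yars (ENSMUSG00000028811; chromosome 4, 129189760 to 129219607) was at 27.7, 25.8 and 28.2 FPKM in control and 13.9, 13.1 and 12.5 in double KO (log2 fold change -1.02 with SE 0.09, adjusted p = 0.000285). Mars was at 84.1, 83.6 and 84.9 and 47.9, 48.99 and 46.1 FPKM (log2 fold change -0.82 with SE 0.09, adjusted p = 0.000607). In neither did the groups overlap. Cars fell from 45.98 ± 1.84 to 24.2 ± 1.42 FPKM (adjusted p = 0.000535), Nars from 176 ± 5.74 to 106 ± 1.21 FPKM (adjusted p = 0.0012) and Gars, the most abundant, from 199 ± 5.61 to 128 ± 10.9 FPKM (adjusted p = 0.00622).

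Of 85 cytosolic ribosomal protein genes 18 fell and none rose (median -0.16), and the block gave 39 falls and 2 rises. Their sum was 58210.0, 51214 and 58175 FPKM in control and 51111, 49216 and 48943 in double KO. All double KO sums lay below all control sums, double KO 1 only just below control 2. Rps2 fell from 881 ± 72.01 to 649.6 ± 29.4 FPKM (adjusted p = 0.00838), Rpl36 from 902 ± 45.97 to 671 ± 19.6 FPKM (adjusted p = 0.00381) and Rpl41 from 619 ± 78.05 to 437 ± 16.8 FPKM (adjusted p = 0.00972). Quantile normalization gave 9 falls and 3 rises with a median of 0.00, and the falls numbered 6 without control 1, 8 without control 3 or double KO 3, 10 without double KO 2 and 11 without Taz KO 3 or double KO 1. Many ribosomal protein genes have near-identical pseudogenes, and how reads were shared among copies is not given in the sources used here.

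Of 58 translation factor genes 16 fell and 2 rose (38 and 3 under the block, 14 and 1 of 55 off the 4 chromosomes), of 63 ribosome assembly genes 10 fell and none rose (43 and 1), of 13 genes for the chaperonin CCT and prefoldin, which fold actin and tubulin, 5 fell and none rose (13 and 0), and of 45 proteasome genes 10 fell and none rose (35 and 2). The medians were -0.24, -0.28, -0.37 and -0.32. Eif2b5, a subunit of the exchange factor for the initiator eIF2, was at 105, 103 and 109 FPKM in control and 65.3, 49.6 and 64.04 in double KO (log2 fold change -0.83 with SE 0.13, adjusted p = 0.00328), without overlap. The translation factor genes that rose were Eif4g3, a scaffold of the cap-binding complex, from 7.78 ± 0.671 to 13.8 ± 0.516 FPKM (adjusted p = 0.000409), and Eif2ak3, the kinase PERK, which lies on chromosome 6, from 5.73 ± 0.178 to 8.198 ± 0.485 FPKM (adjusted p = 0.00631). Eef1a1, the most abundant, was at 4681, 4318 and 4807 FPKM in control and 5184, 4991 and 5156 in double KO (adjusted p = 0.153).

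Pfdn1 fell from 88.2 ± 4.28 to 55.5 ± 5.11 FPKM (adjusted p = 0.00274), and the proteasome assembly gene Psmg4 from 20.05 ± 2.6005 to 11.4 ± 1.13 FPKM (adjusted p = 0.00458). Psma8, the proteasome subunit known from testis, fell from 9.58 ± 1.09 to 3.29 ± 0.564 FPKM (adjusted p = 0.000332). Nop10 of the pseudouridylation particles and Tcof1, a nucleolar factor, fell from 73.1 ± 1.25 to 41.1 ± 9.497 FPKM (adjusted p = 0.0165) and from 62.2 ± 5.01 to 40.3 ± 6.35 FPKM (adjusted p = 0.0118), calls lost without control 1 or control 3 and without control 1. Npm1, the most abundant assembly gene, was at 1263, 992 and 1389 FPKM in control and 1127, 927 and 1067 in double KO, with an adjusted p of 0.344, and 0.0225 with the block. The falls of translation factors numbered 7 without control 1 or control 3 and 9 without double KO 2 or double KO 3, those of ribosome assembly 1 without control 1, 2 without control 3, 4 without double KO 2, 6 without double KO 1 or double KO 3 and 17 without Taz KO 2, and those of the proteasome 2 without control 1, 3 without control 3, 4 without double KO 2 or double KO 3 and 19 without Taz KO 2. Those of the chaperonin list numbered 1 without control 1, 2 without control 3, double KO 1, double KO 2 or double KO 3, 3 without control 2, Taz KO 1 or Taz KO 3 and 8 without Taz KO 2.

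Genes that make amino acids, one-carbon units and nucleotides fell as well. In the serine, glycine and one-carbon list 11 of 27 genes fell and 3 rose (median -0.34), and 20 fell under the block. Off the 4 chromosomes 2 of 21 rose and 10 fell. The pathway from 3-phosphoglycerate to serine fell at each of its enzymes. Phgdh (ENSMUSG00000053398; chromosome 3, 98313170 to 98339990), which starts it, was at 47.6, 39.3 and 47.2 FPKM in control and 20.03, 17.9 and 16.9 in double KO (log2 fold change -1.27 with SE 0.15, adjusted p = 0.000974). Psat1, the next enzyme, was at 101, 90.95 and 103 and 43.4, 39.5 and 40.3 FPKM (log2 fold change -1.25 with SE 0.13, adjusted p = 0.000417), and Psph, the last, at 10.9, 9.98 and 13.1 and 4.01, 3.905 and 3.6995 (log2 fold change -1.43 with SE 0.15, adjusted p = 0.000458). All double KO libraries lay below all control libraries for all of them. Mthfd2, the mitochondrial folate enzyme, fell from 41.1 ± 3.41 to 15.2 ± 1.01 FPKM (adjusted p = 0.00104). Tdh, threonine dehydrogenase, on which mouse stem cells are known to depend, was at 286, 279.7 and 302 FPKM in control and 245, 141 and 230.4 in double KO, with an adjusted p of 0.0808, and 0.00804 with the block.

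In the list of proline, aspartate, glutamine and branched-chain amino acid enzymes 12 of 24 genes fell and 1 rose (median -0.35). Bcat1, which transfers amino groups of branched-chain amino acids and lies on chromosome 6, was at 56.7, 53.1 and 54.4 FPKM in control and 20.4, 15.5 and 15.3 in double KO (log2 fold change -1.66 with SE 0.14, adjusted p = 0.000219). Aldh18a1, the first enzyme of proline synthesis, was at 35.97, 40.2 and 35.6 and 15.9, 20.6 and 16.4 FPKM (log2 fold change -1.06 with SE 0.11, adjusted p = 0.000409). Values of both were separate between the groups. Pycr1, the last enzyme of proline synthesis, fell from 10.2 ± 0.811 to 4.21 ± 1.38 FPKM (adjusted p = 0.00186), Gpt2 from 21.9 ± 2.32 to 10.7 ± 0.185 FPKM (adjusted p = 0.000206) and Asns, asparagine synthetase, from 323 ± 13.1 to 182 ± 7.07 FPKM (adjusted p = 0.000285). The rise was Glul, glutamine synthetase, at 35.2, 32.5 and 35.7 FPKM in control and 56.01, 57.5 and 58.8 in double KO (log2 fold change 0.73 with SE 0.09, adjusted p = 0.00113).

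Of 24 amino acid transporter genes 5 rose and 7 fell (median -0.07), and the block gave 8 and 11. Off the 4 chromosomes 3 of 18 rose and 6 fell, and the falls numbered 4 without control 1. Slc1a4 and Slc1a5, exchangers of neutral amino acids, fell from 11.1 ± 0.9498 to 3.98 ± 1.39 FPKM (adjusted p = 0.00124) and from 89.2 ± 12.1 to 54.98 ± 11.5 FPKM (adjusted p = 0.0146), the second call lost without control 1. Slc7a1, which carries arginine and lysine, fell from 28.1 ± 0.763 to 16.2 ± 2.47 FPKM (adjusted p = 0.00144). Slc38a6, a gene of the glutamine transporter family, was at 14.7, 13.9 and 14.6 FPKM in control and 37.5, 32.01 and 38.7 in double KO (log2 fold change 1.29 with SE 0.09, adjusted p = 8.03e-05), and every double KO library exceeded every control library. The lysosomal exporter Slc38a7 on chromosome 8 rose from 12.9 ± 0.478 to 19.8 ± 0.517 FPKM (adjusted p = 0.000568), and Slc36a1, which exports small amino acids from lysosomes, from 4.11 ± 0.656 to 6.37 ± 0.08004 FPKM (adjusted p = 0.00697).

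In purine and pyrimidine synthesis 14 of 40 genes fell and 1 rose (median -0.35), with 31 falls and 2 rises under the block. Umps, which makes uridine monophosphate, was at 38.3, 34.9 and 37.5 FPKM in control and 23.1, 22.4 and 20.5 in double KO (log2 fold change -0.73 with SE 0.08, adjusted p = 0.000753), without overlap. Prps1, which makes the ribose donor of nucleotides, fell from 59.6 ± 1.14 to 32.5 ± 7.23 FPKM (adjusted p = 0.00405), Paics of purine synthesis from 272 ± 13.99 to 182 ± 4.92 FPKM (adjusted p = 0.00142) and Ada, adenosine deaminase, from 4.295 ± 0.6796 to 1.2004 ± 0.341 FPKM (adjusted p = 0.00131). The rise was Ctps2, a CTP synthase, from 5.87 ± 0.3498 to 8.65 ± 0.452 FPKM (adjusted p = 0.00172). The falls numbered 8 without control 1 and 9 without control 3 or double KO 2. In cholesterol synthesis 13 of 27 genes fell and none rose (median -0.48; 18 and 1 under the block). Sqle and Fdps fell from 33.6 ± 1.701 to 15.97 ± 3.55 FPKM (adjusted p = 0.00346) and from 146 ± 6.07 to 73.4 ± 17.7 FPKM (adjusted p = 0.00875), and the falls numbered 8 without control 1 or control 2.

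Lysosomal genes moved the other way. Lysosomes degrade material delivered by endocytosis and autophagy with acid hydrolases, and the V-ATPase acidifies them. Of 59 genes for lysosomal hydrolases and membrane proteins 24 rose and none fell (median 0.36), and the block gave 37 rises and 4 falls. Off chromosomes 6, 8, 14 and Y 16 of 48 rose. The list summed to 1988, 2149 and 1983 FPKM in control and 2688, 3035 and 2704 in double KO, without overlap.

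Lamp1 (ENSMUSG00000031447; chromosome 8, 13159161 to 13175338) was at 247, 243 and 277 FPKM in control and 436, 436 and 458 in double KO (log2 fold change 0.80 with SE 0.09, adjusted p = 0.000594). Hexa, a subunit of beta-hexosaminidase (ENSMUSG00000025232; chromosome 9, 59539540 to 59565109), was at 58.8, 71.4 and 60.2 and 125, 148 and 124 FPKM (log2 fold change 1.06 with SE 0.20, adjusted p = 0.00645). Plbd1, a phospholipase-like gene on chromosome 6, was at 0.828, 1.06 and 0.919 and 7.604, 7.47 and 7.202 FPKM (log2 fold change 2.47 with SE 0.12, adjusted p = 2.42e-05). For these genes every double KO library exceeded every control library. Gpnmb, a glycoprotein of lysosomes and melanosomes on chromosome 6, was at 0.916, 1.63 and 1.57 and 7.36, 29.8 and 14.1 FPKM, with a wide spread among the double KO libraries (adjusted p = 0.00218). Mcoln1, Glb1 and Ctsd, whose promoters are shown above, rose from 14.7 ± 0.337 to 34.5 ± 4.35 FPKM (adjusted p = 0.000544), from 63.3 ± 7.03 to 96.7 ± 15.1 FPKM (adjusted p = 0.0186) and from 141 ± 13.4 to 207 ± 18.5 FPKM (adjusted p = 0.0125), and the last pair lie off the 4 chromosomes.

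Of 18 V-ATPase genes 6 rose and none fell (median 0.17; 11 and 1 under the block, 3 without control 1, 3 of 12 off the 4 chromosomes). Atp6v0d1 on chromosome 8 rose from 47.9 ± 3.501 to 89.3 ± 6.68 FPKM (adjusted p = 0.00107) and Atp6v0b on chromosome 4 from 42.96 ± 0.7598 to 62.4 ± 6.17 FPKM (adjusted p = 0.00682). Of 44 autophagy genes 10 rose and 1 fell (median 0.08; 12 and 4 under the block), with 6 without control 1, control 3 or double KO 1. Sqstm1, the cargo receptor p62 (ENSMUSG00000015837; chromosome 11, 50199366 to 50210827), was at 49.9, 49.6 and 47.9 FPKM in control and 128, 189.6 and 135 in double KO (log2 fold change 1.59 with SE 0.14, adjusted p = 0.000238). All double KO libraries lay above 2 times the highest control library. The receptor gene Optn rose from 6.77 ± 0.616 to 11.6 ± 1.03 FPKM (adjusted p = 0.00371), Atg13 of the initiating kinase complex from 27.6 ± 2.96 to 50.2 ± 2.07 FPKM (adjusted p = 0.00128) and Map1lc3b on chromosome 8 from 18.2 ± 1.94 to 26.8 ± 0.932 FPKM (adjusted p = 0.00254).

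Metallothioneins bind zinc and copper. Mt1 and Mt2 lie side by side on chromosome 8 and together made most of the zinc list's sum of 2742, 2709.9 and 2854 FPKM in control and 4154, 4896 and 3834 in double KO. Mt1 was at 1104, 1009.5 and 1166 FPKM in control and 1760.1, 1974 and 1652 in double KO (log2 fold change 0.71 with SE 0.09, adjusted p = 0.00124), and Mt2 at 1453, 1497 and 1496 and 2188, 2682 and 1973 (log2 fold change 0.61 with SE 0.11, adjusted p = 0.00551), without overlap. Of the 21 genes of the list 5 rose and 1 fell (median 0.16; 8 and 2 under the block, 3 and 1 of 17 off the 4 chromosomes), and the rises numbered 3 without control 1 or double KO 3. The fall was the zinc transporter gene Slc39a11, from 15.9 ± 1.27 to 7.696 ± 1.56 FPKM (adjusted p = 0.00181).

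**Figure D4:**
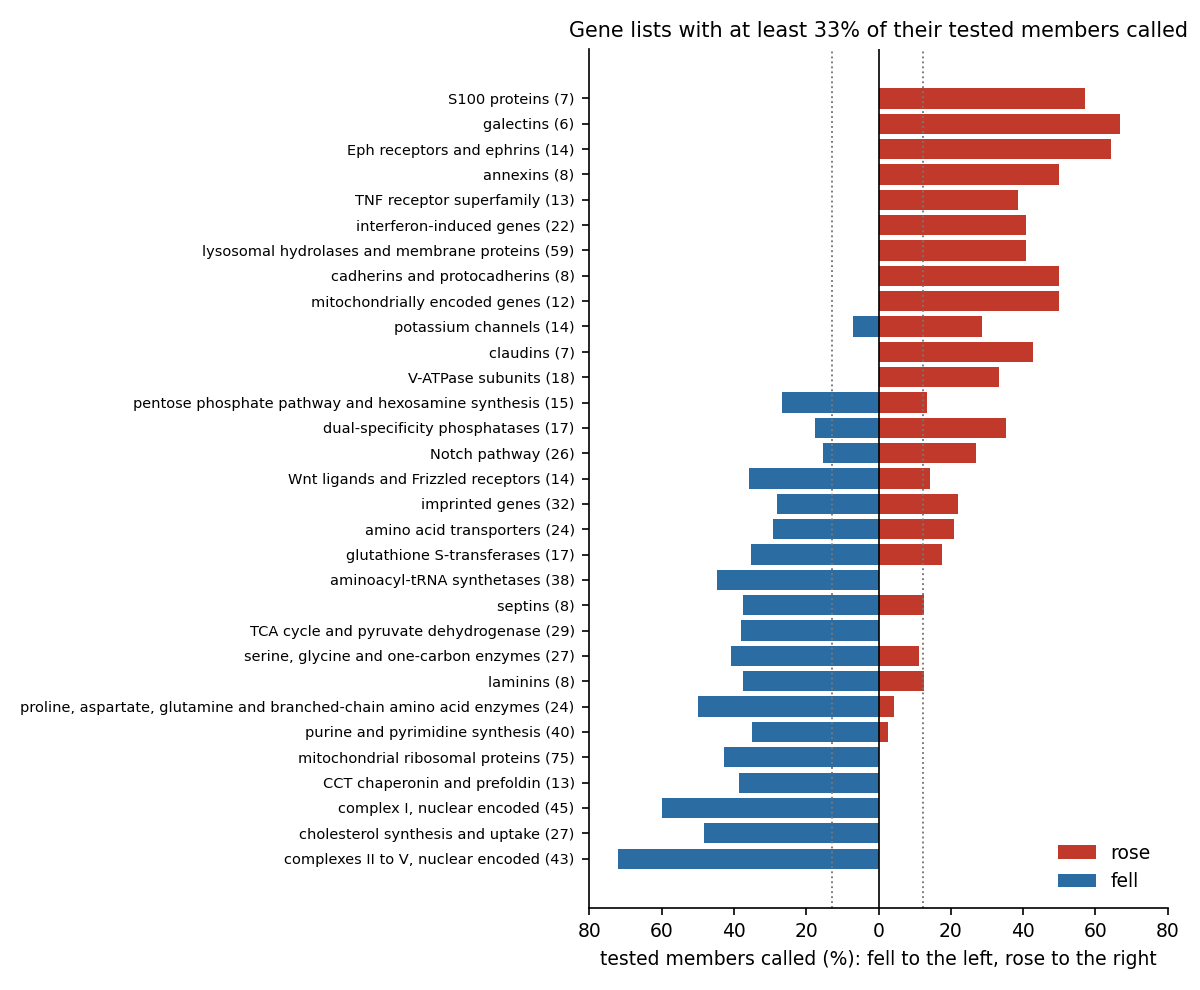
Share of tested members that rose (red, to the right) or fell (blue, to the left) in 31 described gene lists with at least 33% of members called, ordered by median log2 fold change, with list sizes in brackets and dotted lines at 12.4 and 12.9%, the shares over all tested genes. Surface, calcium-binding and lysosomal lists are at the top and respiratory, cholesterol and biosynthetic lists at the bottom.

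In several small families of the cell surface and of calcium binding every called gene rose. Eph receptors and ephrins signal between touching cells, and 9 of their 14 tested genes rose and none fell (median 0.70; 9 and 1 under the block), 6 of 11 off the 4 chromosomes. Epha4, a receptor (ENSMUSG00000026235; chromosome 1, 77367185 to 77515088), was at 10.7, 11.5 and 11.4 FPKM in control and 24.6, 21.3 and 30.02 in double KO (log2 fold change 1.13 with SE 0.14, adjusted p = 0.0012). Efnb1, a transmembrane ligand on chromosome X, was at 1.08, 1.06 and 1.22 and 3.65, 2.61 and 4.52 FPKM (log2 fold change 1.31 with SE 0.17, adjusted p = 0.00144). Both genes were higher in every double KO library than in any control library. Epha1 on chromosome 6 and the ligand gene Efna1 rose from 1.802 ± 0.0828 to 4.23 ± 0.162 FPKM (adjusted p = 0.00085) and from 1.34 ± 0.164 to 3.27 ± 0.904 FPKM (adjusted p = 0.00448). Epha2, the most abundant receptor, was at 40.6, 41.2 and 40.4 FPKM in control and 34.8, 23.99 and 35.8 in double KO, with an adjusted p of 0.101, and 0.0171 with the block.

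Galectins are lectins that bind beta-galactosides, and 4 of 6 rose and none fell (median 1.07). Lgals1 (ENSMUSG00000068220; chromosome 15, 78926725 to 78930465) was at 44.8, 54.6 and 40.04 FPKM in control and 190.4, 173 and 204 in double KO (log2 fold change 2.02 with SE 0.18, adjusted p = 0.000246), so that each double KO library exceeded 3 times the highest control library. Lgals9 was at 1.26, 1.18 and 1.33 and 8.53, 5.39 and 11.2 FPKM (log2 fold change 2.28 with SE 0.30, adjusted p = 0.00127). Lgals3 on chromosome 14 rose from 2.88 ± 0.394 to 6.48 ± 1.26 FPKM (adjusted p = 0.00175). Of 7 tested S100 genes, which encode small calcium-binding proteins, 4 rose and none fell (median 1.61), and the block gave 6. S100a6 was at 2.97, 3.39 and 3.94 FPKM in control and 14.5, 18.5 and 17.2 in double KO (log2 fold change 2.13 with SE 0.15, adjusted p = 7.67e-05), and S100a14 at 0.382, 0.3701 and 0.235 and 6.598, 4.91 and 6.37 (log2 fold change 2.96 with SE 0.15, adjusted p = 2.42e-05). No values overlapped. S100a11, the most abundant, was at 80.8, 71.7 and 80.4 and 99.1, 77.1 and 98.5 FPKM, with an adjusted p of 0.241, and 0.0109 with the block.

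Of 8 annexins, which bind membranes with calcium, 4 rose and none fell (median 0.48), but off the 4 chromosomes it was 1 of 4, namely Anxa6, from 53.8 ± 1.14 to 69.4 ± 4.03 FPKM (adjusted p = 0.00596). Of 7 claudins, the strands of tight junctions, 3 rose and none fell (median 0.28). Cldn3 (ENSMUSG00000070473; chromosome 5, 134986214 to 134987472) was at 2.72, 3.39 and 2.98 FPKM in control and 14.9, 13.03 and 15.02 in double KO (log2 fold change 2.07 with SE 0.11, adjusted p = 2.42e-05), and Cldn4, its neighbour on chromosome 5, at 102, 119 and 96.9 and 219.9, 338 and 210.2 (log2 fold change 1.24 with SE 0.22, adjusted p = 0.00492). Every double KO library exceeded every control library for both. Of 8 cadherin genes 4 rose and none fell (5 and 1 under the block), but off the 4 chromosomes it was 1 of 4. Cdh1, which encodes E-cadherin and lies on chromosome 8, rose from 161 ± 12.3 to 216 ± 6.83 FPKM (adjusted p = 0.00546), and the desmosomal gene Dsg2 on chromosome 18 from 6.42 ± 0.745 to 11.5 ± 0.427 FPKM (adjusted p = 0.000845). Of 8 laminin genes, which build the basement membrane, 3 fell and 1 rose. Lamb1 was at 13.05, 15.1 and 11.9 FPKM in control and 5.96, 5.63 and 6.57 in double KO (log2 fold change -1.08 with SE 0.10, adjusted p = 0.000339), without overlap, and Lamc1 fell from 102 ± 8.16 to 78.9 ± 2.24 FPKM (adjusted p = 0.0107).

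Of 13 TNF receptor genes 5 rose and none fell (median 0.47; 2 of 9 off the 4 chromosomes), with 3 without control 1, control 3, double KO 1 or double KO 3. Ngfr, the neurotrophin receptor p75, rose from 12.1 ± 0.926 to 27.3 ± 8.55 FPKM (adjusted p = 0.00628). Of 22 interferon-induced genes 9 rose and none fell (median 0.40; 14 and 2 under the block, 6 of 19 off the 4 chromosomes), with 4 without control 1, control 3, double KO 1 or double KO 3 and 5 without control 2. Bst2 on chromosome 8, which tethers virions, rose from 85.6 ± 8.13 to 138 ± 8.35 FPKM (adjusted p = 0.00136), and Ifitm2, the most abundant of the list, was at 269, 274 and 249 FPKM in control and 236, 201 and 224 in double KO, with an adjusted p of 0.0844, and 0.0185 with the block. Of 17 glutathione S-transferase genes 6 fell and 3 rose (median -0.17; 7 and 5 under the block, 6 and 2 of 16 off the 4 chromosomes), and Gsto1 fell from 35.4 ± 4.84 to 16.8 ± 0.409 FPKM (adjusted p = 0.00065).

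**Figure D5:**
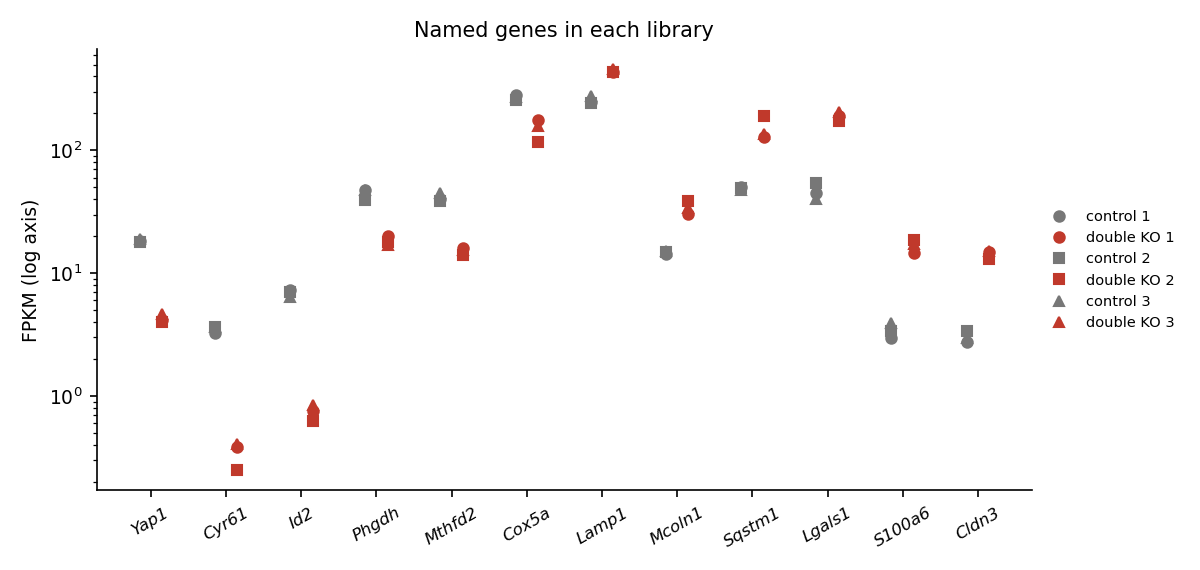
FPKM of 12 named genes in each control library (grey) and double KO library (red) on a log axis, with shapes marking replicate numbers. In each gene the 3 double KO libraries lie apart from the 3 control libraries, below them from Yap1 to Cox5a and above them from Lamp1 to Cldn3.

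Regulators of signalling moved in both directions within their families. Of 17 dual-specificity phosphatases, which switch off MAP kinases, 6 rose and 3 fell, and off the 4 chromosomes it was 3 and 3 of 14. Dusp1 (ENSMUSG00000024190; chromosome 17, 26505590 to 26562128) was at 22.9, 21.8 and 22.1 FPKM in control and 58.2, 59.4 and 65.9 in double KO (log2 fold change 1.44 with SE 0.09, adjusted p = 5.33e-05), and Dusp10 at 0.689, 1.02 and 0.846 and 4.55, 3.45 and 4.06 (log2 fold change 1.74 with SE 0.17, adjusted p = 0.000332). Dusp27, a family member with an inactive catalytic site, was at 6.53, 6.08 and 7.63 and 2.26, 2.14 and 2.94 FPKM (log2 fold change -1.303 with SE 0.14, adjusted p = 0.000584). The groups stood apart for all of these. Dusp5 rose from 1.35 ± 0.167 to 4.13 ± 0.563 FPKM (adjusted p = 0.000364). Without 1 library the falls numbered 1 without control 1, control 3 or double KO 1.

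Of 26 Notch pathway genes 7 rose and 4 fell (median 0.06), with 8 and 8 under the block. Lfng and Rfng, glycosyltransferases that modify Notch, rose from 3.08 ± 0.456 to 7.27 ± 0.913 FPKM (adjusted p = 0.00125) and from 14.7 ± 1.72 to 23.5 ± 1.45 FPKM (adjusted p = 0.00322), and Dtx1, a ubiquitin ligase of the pathway, from 10.1 ± 0.7599 to 22.5 ± 2.22 FPKM (adjusted p = 0.000582). Rbpj, the DNA-binding partner of cleaved Notch, was at 31.8, 35.5 and 32.8 FPKM in control and 22.3, 24.1 and 23.4 in double KO (log2 fold change -0.51 with SE 0.07, adjusted p = 0.00152), without overlap. The rises numbered 4 without control 1 or control 3 and the falls 2 without control 1 or double KO 1. Of 14 genes for Wnt ligands, Frizzled receptors and secreted inhibitors 2 rose and 5 fell (4 and 5 under the block). The receptor gene Fzd6 rose from 1.1003 ± 0.0404 to 2.93 ± 0.647 FPKM (adjusted p = 0.0013) and Fzd5 fell from 24.1 ± 1.77 to 16.5 ± 1.25 FPKM (adjusted p = 0.00254), and the falls numbered 1 without control 1, 2 without control 2 or control 3 and 3 without Taz KO 1, Taz KO 3, double KO 1 or double KO 3.

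Among 31 bZIP transcription factors 8 rose and 1 fell (median 0.00; 14 and 7 under the block, 5 and 1 of 27 off the 4 chromosomes). Jund on chromosome 8 was at 20.5, 23.1 and 24.4 FPKM in control and 91.2, 111 and 86.8 in double KO (log2 fold change 2.06 with SE 0.12, adjusted p = 4.74e-05), and Junb on chromosome 8 rose from 6.54 ± 0.2998 to 19.5 ± 0.702 FPKM (adjusted p = 7.93e-05). Mafg, a small Maf protein, rose from 23.02 ± 1.27 to 36.3 ± 3.404 FPKM (adjusted p = 0.00175). The fall was Atf4, which drives genes of amino acid supply and the tRNA synthetases, at 176, 165 and 195 FPKM in control and 125, 121 and 129 in double KO (log2 fold change -0.51 with SE 0.11, adjusted p = 0.0112), without overlap. Of 47 histone methyltransferases 10 rose and 2 fell (20 and 7 under the block). Kmt2a rose from 7.72 ± 0.233 to 11.2 ± 0.761 FPKM (adjusted p = 0.00536) and Whsc1l1 on chromosome 8 from 2.92 ± 0.281 to 5.28 ± 0.2196 FPKM (adjusted p = 0.00156), while Setd6 on chromosome 8 fell from 25.9 ± 0.289 to 21.1 ± 0.475 FPKM (adjusted p = 0.01). The rises numbered 2 without control 1, 3 without double KO 3, 4 without control 2 or double KO 1 and 5 without control 3.

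Of 32 imprinted genes, expressed from the allele of 1 parent, 7 rose and 9 fell (median -0.05; 11 and 10 under the block). Cdkn1c, a cell cycle inhibitor, was at 3.89, 3.29 and 2.53 FPKM in control and 9.13, 9.23 and 11.99 in double KO (log2 fold change 1.51 with SE 0.16, adjusted p = 0.000484). Grb10, an adaptor that dampens insulin signalling, was at 4.63, 4.08 and 4.78 and 1.19, 1.04 and 1.16 FPKM (log2 fold change -1.62 with SE 0.15, adjusted p = 0.000285), and its neighbour Ddc fell from 5.27 ± 0.219 to 2.39 ± 0.3497 FPKM (adjusted p = 0.00357). All of these were separate between the groups. Peg10 on chromosome 6 rose from 4.76 ± 0.8703 to 13.5 ± 4.35 FPKM (adjusted p = 0.0031). The rises numbered 2 without double KO 3, 3 without control 1 or control 3 and 4 without double KO 1, and the falls 4 without control 1. Of 14 potassium channel genes 4 rose and 1 fell (median 0.30; 6 and 2 under the block), and the most abundant, Kcnk5 on chromosome 14, rose from 17.4 ± 2.003 to 30.8 ± 1.26 FPKM (adjusted p = 0.00174).

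Of 49 replication factors 16 fell and none rose (median -0.20), with 27 and 2 under the block. Pold2, a subunit of DNA polymerase delta, was at 66.8, 64.1 and 62.5 FPKM in control and 39.9, 38.7 and 35.5 in double KO (log2 fold change -0.76 with SE 0.08, adjusted p = 0.000495), without overlap. Mcm3, the most abundant, was at 179.8, 165 and 186 and 168, 156 and 156 FPKM, with an adjusted p of 0.179, and 0.0373 with the block. The falls numbered 3 without control 1, 5 without control 3, 6 without double KO 3, 9 without control 2 or double KO 2 and 10 without Taz KO 1, Taz KO 3 or double KO 1. Of 48 kinetochore genes 9 fell and 1 rose (24 and 6 under the block, 9 and 0 of 43 off the 4 chromosomes), and Cenpm and Cenpw of the centromere fell from 29.6 ± 1.01 to 15.4 ± 2.52 FPKM (adjusted p = 0.00155) and from 16.8 ± 1.598 to 9.75 ± 1.19 FPKM (adjusted p = 0.00174). The kinetochore falls numbered 5 without control 3 and 15 without Taz KO 2.

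The other described lists held few calls each. Of all tested genes 25.3% were called, with 12.9% falls. In the lists from heat shock to histone demethylases below, 11.5 to 23.8% were called, under that share. Those lists were described for the single direction of their calls. Aldehyde dehydrogenases (31.6%), the pentose phosphate list (40%) and septins (50%) lay above it. Heat shock proteins and their co-chaperones had 12 falls and 1 rise of 64 (30 and 8 under the block). RNA polymerase III and tRNA modification had 6 falls of 52 (11.5%, not above the share of falls among all tested genes), and 21 falls and 5 rises under the block. Nucleoporins had 5 falls of 31 (11 falls and 1 rise), and homologous recombination and Fanconi anaemia had 5 falls and 1 rise of 36 (11 and 7, with 5 and 0 of 32 off the 4 chromosomes). Sphingolipid enzymes had 4 rises and 1 fall of 28 (11 and 2), nucleotide sugar transporters 4 rises of 21 (8 rises and 2 falls), enzymes of sialylation and O-glycosylation 4 rises and 1 fall of 21 (6 and 2), and histone demethylases 4 rises and 1 fall of 24 (5 and 6, with 2 and 0 of 20 off the 4 chromosomes). Aldehyde dehydrogenases and aldo-keto reductases had 5 falls and 1 rise of 19 (11 and 2), the pentose phosphate and hexosamine pathways 4 falls and 2 rises of 15 (5 and 5, with 3 and 1 of 10 off the 4 chromosomes), and septins 3 falls and 1 rise of 8 (5 and 2). Most of these counts moved when 1 library was left out. Heat shock falls numbered 4 without control 1, control 3 or double KO 3 and 7 without Taz KO 1, double KO 1 or double KO 2, those of RNA polymerase III 2 without control 1, 3 without double KO 1 or double KO 3 and 11 without Taz KO 2, and those of nucleoporins 2 without control 1 or double KO 3 and 3 without control 3. Falls of homologous recombination numbered 1 without control 1 or control 3, 2 without Taz KO 3 or double KO 3 and 3 without double KO 1, and those of aldehyde dehydrogenases 3 without control 1 or control 2. Sphingolipid rises numbered 1 without double KO 3 and 2 without control 1, control 2, control 3 or double KO 1, and nucleotide sugar rises 1 without control 1 or double KO 1 and 2 without control 3 or double KO 3. The rises of O-glycosylation and of histone demethylases each numbered 2 without control 1, control 2, double KO 1 or double KO 3. In all described lists a direction with 2 calls or fewer held 0 to 4 in these fits. The largest changes among them were Nup62cl, a nucleoporin-like gene of chromosome X, which fell from 9.01 ± 0.933 to 2.14 ± 0.244 FPKM (adjusted p = 7.52e-05), and Galnt7 of O-glycosylation on chromosome 8, which rose from 2.73 ± 0.339 to 9.33 ± 2.03 FPKM (adjusted p = 0.000579). Cerk, ceramide kinase, rose from 2.54 ± 0.474 to 8.27 ± 1.51 FPKM (adjusted p = 0.0042), Sept1 fell from 126 ± 9.28 to 53.6 ± 7.62 FPKM (adjusted p = 0.000332) and Fanci, of the Fanconi anaemia pathway, fell from 19.9 ± 1.11 to 9.88 ± 0.438 FPKM (adjusted p = 0.000108). Gfpt1, the first enzyme of hexosamine synthesis, rose from 5.72 ± 0.692 to 10.1 ± 0.588 FPKM (adjusted p = 0.00273), while its paralogue Gfpt2 fell from 10.7 ± 0.269 to 8.08 ± 0.866 FPKM (adjusted p = 0.0113).

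Some genes crossed a level of 1 FPKM in all libraries. Under 1 FPKM in every control library and at or over it in every double KO library were 60 tested genes, of which 56 were called, and 53 went the other way, of which 43 were called. Over all genes of the table, with no filter on the mean, the counts were 132 and 88. Scara5, a ferritin receptor on chromosome 14, was at 0.4199, 0.718 and 0.465 FPKM in control and 5.24, 8.41 and 5.12 in double KO (log2 fold change 2.68 with SE 0.33, adjusted p = 0.00101). Slc15a2, a peptide transporter, was at 0.49002, 0.386 and 0.644 and 3.49, 3.64 and 4.03 (log2 fold change 2.07 with SE 0.13, adjusted p = 5.55e-05). Crispld2, a secreted protein gene of chromosome 8, rose from 0.319 ± 0.0619 to 2.95 ± 0.3697 FPKM (adjusted p = 0.000168), and Asprv1, a skin protease gene of chromosome 6, from 0.491 ± 0.173 to 2.51 ± 0.524 FPKM (adjusted p = 0.00207). Grm4, a glutamate receptor, rose from 0.8302 ± 0.1497 to 4.07 ± 0.797 FPKM (adjusted p = 0.00107), Foxe1, a forkhead factor, from 0.358 ± 0.02398 to 2.88 ± 1.69 FPKM (adjusted p = 0.0103) and Cdc14a, a phosphatase, from 0.6004 ± 0.121 to 2.76 ± 0.659 FPKM (adjusted p = 0.00148).

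Among those that dropped under 1 FPKM, Id2, an inhibitor of bHLH factors (ENSMUSG00000020644; chromosome 12, 25093799 to 25097140), was at 7.23, 7.03 and 6.41 FPKM in control and 0.758, 0.625 and 0.843 in double KO (log2 fold change -2.58 with SE 0.11, adjusted p = 9.66e-06). Cyr61, a matricellular protein and YAP/TAZ target, was at 3.27, 3.65 and 3.63 and 0.384, 0.247 and 0.402 FPKM (log2 fold change -2.25 with SE 0.16, adjusted p = 9.38e-05). Msln, which encodes mesothelin, was at 2.28, 2.48 and 1.95 and 0.108, 0.178 and 0.121 FPKM (log2 fold change -2.103 with SE 0.16, adjusted p = 0.000108). Smoc1, a matrix protein, fell from 3.68 ± 0.976 to 0.417 ± 0.161 FPKM (adjusted p = 0.000761), Glrx, glutaredoxin, from 3.92 ± 1.096 to 0.605 ± 0.206 FPKM (adjusted p = 0.000753), and Fam13c from 3.47 ± 0.511 to 0.351 ± 0.251 FPKM (adjusted p = 0.000409). Because these genes were picked by their levels in these groups, the direction and the separation follow from the choice. Without control 2 the genes that came over 1 FPKM numbered 114 and without control 3 they numbered 91, and without double KO 2 those that dropped under it numbered 140. As every library of a group had to pass, leaving 1 out can only keep or raise these counts.

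Of the 2948 genes called, 1118 belonged to at least 1 of the 109 lists and 1830 to none. The lists covered 4169 of the 11674 tested genes, and 57 of them did not meet the rule for description: 5 had under 5 tested members, 12 had under 3 calls, and 40 had neither the share of calls nor the single direction required. By biotype 12.7% of 10701 protein-coding genes rose and 13.3% fell, and of 152 lincRNAs 17.1% rose and 14.5% fell. Of 150 snoRNA genes 2 rose and 9 fell, and of 156 processed pseudogenes 4 rose and 11 fell.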

How the data were processed

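Poly(A)-selected RNA of 9 libraries was sequenced from a directional kit on a NextSeq 500 for 75 cycles, from 1 µg of RNA with an integrity number above 7, per the labels' protocols. The deposited table holds FPKM values per gene, made by the authors. Tools in the submitters' processing notes are TopHat2 2.1.1, HTSeq 0.6.1 and DESeq2, and the build is mm10. What each did, which annotation was used and whether counting used strand is not stated in the labels or files used here, so reads of overlapping, antisense or near-identical genes may be shared between them.

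Within each gene the values were whole multiples of the worth of 1 read for 24621 of the 24621 genes above 0 (100.0%, tolerance 0.001). The recovered reads were 19.9 to 24.0 M in control and 19.3 to 22.1 M in double KO. The worth of a read followed a median-of-ratios size factor, so the scale is that of the typical gene. No 2 replicates agreed within sampling noise (chi-square per gene 5.04 to 39.6), and 0 columns belonged to no sample.

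Genes with a mean of at least 1 FPKM over the 9 libraries were tested on log2(FPKM + 0.5) with limma 3.58.1 in R 4.3.3. The model of 3 group means had 6 residual degrees of freedom and variances with a trend. The two-sided p-values were adjusted over all 11674 genes (Benjamini-Hochberg), with a threshold of 0.05. Fold changes on this scale understate those of low genes. Values are mean ± SD over 3 libraries. The script was tested on simulated data. Principal component 1 of the 6 libraries (58.9% of the variance) separated the groups and component 2 (27.3%) the libraries numbered 2.

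Libraries of the same replicate number deviated together from their group means (correlations of 0.192 to 0.711, against -0.688 to 0.394 for other pairs). The pairing comes from these values, as no label says what the number stands for. The block is printed where it changed a named call or moved a list's count by over 1.5 times. The alternatives were other pseudocounts (0.1 and 1), other filters, quantile normalization, the block, the 6 libraries alone, a fit without 4 chromosomes, voom on the recovered reads and leaving out each library. Libraries numbered 1 and 3 alone, and scaling by total reads, were chosen after seeing the data.

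Genes were matched by symbol to GENCODE M21 (GRCm38), 11569 of those tested. The 109 gene lists were chosen with earlier results of these data known. A list was described if it had at least 5 tested members and 3 calls, with a share of calls at least 1.5 times that of all genes or 80% of its calls in 1 direction. Named were the 15 largest gains and losses in FPKM, the 4 largest fold changes in each direction and the most abundant member of each described list, the 10 largest crossings of 1 FPKM in each direction, the targeted genes and the markers. Genes whose promoters are shown were chosen as known members of their groups after their calls were seen. No sequence check was made of the deletions. Results of 1 described list are not reported here.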

Additional observations from a re-analysis of the deposited data

How the results depend on the processing

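Rises and falls kept within 1.5 times of the reported 1443 and 1505 under both other pseudocounts, both other filters, quantile normalization, the 6 libraries alone, voom, scaling by total reads and the fit without chromosomes 6, 8, 14 and Y (974 and 1417 of 10080). The replicate block gave 2828 and 3284, and the libraries numbered 1 and 3 alone gave 2266 and 2623. Leaving out 1 library gave 780 to 1677 rises and 725 to 1891 falls, with more falls than rises in 6 of 9 fits. The 296 named calls counted here leave out genes named only as markers. Of these calls 225 were tested at the filter of 5 FPKM and 235 without the 4 chromosomes. None of the 296 turned its direction where tested, and 180 held in all 9 fits without 1 library. The block lost none of them, quantile normalization lost 27 and the fit with no filter 69. Of the medians of the 52 described lists, 5 moved by more than the spread between replicates at the filter of 5 FPKM and 5 without the 4 chromosomes. Without double KO 2 it was 4 and under quantile normalization 3. It was 2 each under voom, without control 2 and with the libraries numbered 1 and 3 alone. It was 1 without double KO 3 and none under the other settings, the block among them. No median at least as large as that spread changed its sign. Some smaller ones did. Under quantile normalization the median of imprinted genes went from -0.053 to 0.016 and that of the Wnt list from -0.031 to 0.003. That of bZIP factors went from 0.004 to -0.027.

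The median log2 fold change of genes of 30 to 300 FPKM, -0.17, was -0.034 under quantile normalization, which equalises the distributions by construction, and -0.12 when scaled by total reads. The net difference of -19356 FPKM over all tested genes was between -26549 and -10543 without 1 library. Genes that came over 1 FPKM (60) numbered 64 to 114 without 1 library, and those that dropped under it (53) numbered 54 to 140. These counts cannot fall when a library is left out, so they do not test how firm the crossings are. Genes near 1 FPKM rest on few reads and their fold changes are understated.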
